A study of Mus musculus with 16 samples.

Results

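The genes described here are 39 genes of mitosis and cytokinesis, taken by gene symbol from a fixed list and found once each among the 46078 genes of the count table. They encode transcription factors that act late in the cell cycle, mitotic cyclins and kinases, checkpoint and kinetochore proteins, regulators of anaphase, chromosome proteins, spindle motors and the proteins of cytokinesis. All 39 passed the filter on low counts, which 14897 genes passed, so every one of them enters each comparison. Juxtaglomerular (JG) cells are the renin-producing cells of the mouse kidney, and the cells used here were a cultured population engineered to carry YFP under the renin promoter. The control cultures received a non-mammalian miRNA precursor and the others received miR-106b, and both were collected 48 h later. For each transfection, 4 libraries held polyA RNA and 4 held RNA bound to Ago2, the Argonaute protein that holds miRNAs and their target mRNAs. There were thus 16 libraries in 4 groups (polyA RNA or Ago2-IP RNA, each with control or with miR-106b). Every group carried the YFP transgene and a transfected small RNA, and no untransfected cells were compared.

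Dividing cells raise a shared set of transcripts as they approach mitosis. A repressor complex named DREAM, which contains the MuvB proteins, holds these genes down in resting cells, and MuvB together with B-Myb and Foxm1 activates them in cycling cells. Many of their promoters carry a short element called CHR, often with CCAAT boxes a short way upstream. miR-106b belongs to the miR-17 family, known for targeting regulators of the step from rest to DNA synthesis, including E2F factors and inhibitors of cyclin-dependent kinases.

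The libraries held between 2579086 and 9459585 reads counted on genes, and the 39 genes took between 567 and 20079 of them. Levels are given as CPM, the read count of a gene relative to the size of its library after scaling by the TMM method over all 16 libraries, as mean ± SD (n = 4) or per library in the order of replicates 1 to 4. Of 624 values, 6 were 0. The defining transcript of JG cells, renin (Ren1), had 0 counts in every library. Markers of cardiac muscle were abundant, summing to between 19222 and 27396 CPM in polyA control, between 42477 and 73510 CPM in polyA miR-106b and between 103525 and 117071 CPM in Ago2-IP libraries. The satellite-like locus Gm10800 was between 7705 and 15036 CPM in Ago2-IP control replicate 4 and Ago2-IP miR-106b replicates 1, 2 and 3, and between 225 and 1647 CPM in the other Ago2-IP libraries.

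The mature miRNA is shown because its seed, bases 2 to 8 in capitals, sets which 3′UTR sites it can pair with. It lies on the minus strand at chr5:138165787-138165807 of GRCm38.p6 (RefSeq), and 7 mature mouse miRNAs share the seed.
mmu-miR-106b-5p: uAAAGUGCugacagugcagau
The longest 3′UTR of each gene (GENCODE release M21) was searched for GCACTTT, which pairs with the seed, and for CACTTTA. The first was found in 4 of the 39 genes (10.3%), against 15.3% of 13234 tested genes with a 3′UTR, and either was found in 6 (15.4%) against 23.0%. The median 3′UTR was 1028 bases in the 39 genes and 1398 bases in all. The sites with GCACTTT are given 5′ to 3′ with the matching bases in capitals and with the GRCm38 position of those bases, except for the other site of Ect2 at chr3:27117882-27117888. They lie in Cep55 (plus strand, chr19:38073559-38073565), Ect2 (minus strand, chr3:27123939-27123945), Foxm1 (plus strand, chr6:128374371-128374377) and Kif23 (minus strand, chr9:61917436-61917442).
Cep55: tttctttatagGCACTTTaaaccacagatg
Ect2: tccagacaaaaGCACTTTagaaaaagctat
Foxm1: gggacggggttGCACTTTgcttctgcttgt
Kif23: caaaaaaaaatGCACTTTagacatatttaa
Ccna2 and Cenpe held CACTTTA only. A match of letters describes the sequence and is not evidence of binding.

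In polyA RNA, the comparison of miR-106b with control asks how mRNA levels differed 48 h after transfection. All 39 genes fell, with adjusted p-values between 0.000683 and 0.0342 in edgeR's quasi-likelihood test, against 21.5% of all tested genes that were lower by the same test. The median log2 fold change was -1.77, which is 3.42-fold lower, and the range ran from -2.51 (Bub1) to -1.33 (Cenpf), beside a median of -0.05 over all tested genes. The SD between their log2 fold changes was 0.25, and the median SE of a gene was 0.35. The SE also holds differences between libraries that the genes shared, so these values do not show whether the genes changed alike. In 38 of the 39, every miR-106b library lay below every control library, as in 14.9% of all tested genes. In RNA of whole cultures, fewer dividing cells and less of each mRNA per cell cannot be told apart.

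**Figure D1:**
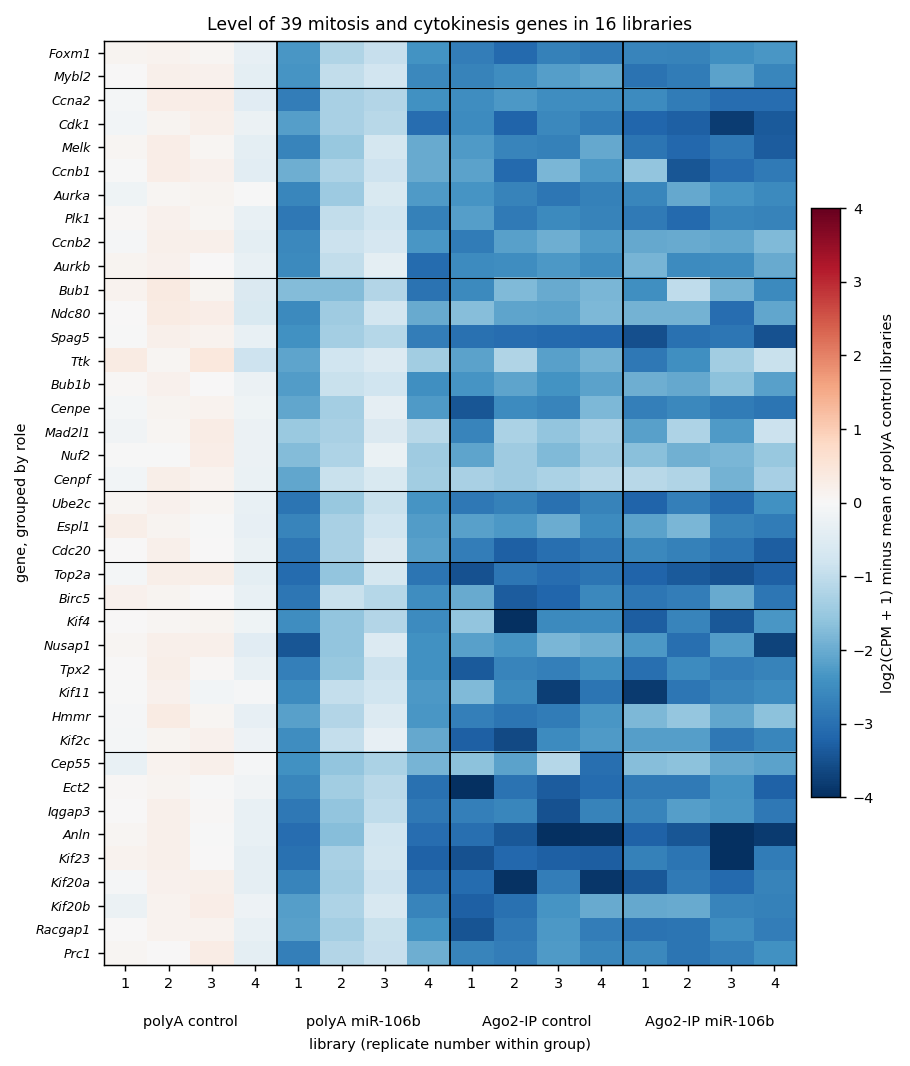
Level of the 39 genes (rows, grouped by role) in the 16 libraries (columns, replicates 1 to 4 within each group), drawn in colour as log2(CPM + 1) minus the mean of the polyA control libraries. The polyA miR-106b libraries are lower than the polyA control libraries, replicates 1 and 4 more than replicates 2 and 3, and the 8 Ago2-IP libraries are low with either transfection.

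The polyA miR-106b libraries differed among themselves. The 39 genes summed to 239, 647, 923 and 265 CPM in replicates 1 to 4, and to 1665, 1853, 1761 and 1318 CPM in the control libraries. Relative to the polyA control mean, the median gene stood at 0.138, 0.376, 0.565 and 0.163 in those miR-106b libraries. Replicates 1 and 4 were thus the lowest and replicate 3 the highest, a pattern that 38 of the 39 genes followed for replicate 3. Both replicates 2 and 3 were above both replicates 1 and 4 in 37 genes. In the control group, replicate 4 was the lowest for 35 genes. How many of all tested genes kept these orders was not counted, so the orders cannot be called particular to the 39 genes.

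Markers of several cell types moved with the same groups. In polyA RNA 19.0% of all tested genes were higher with miR-106b. Of 25 cardiac muscle markers, 24 were tested and 23 rose in polyA RNA with miR-106b, by a median log2 fold change of 1.23, while Myl4 had 0.35 and Myl7 had too few counts to test. All 10 endothelial markers rose, by a median of 1.18, with sums of 294 to 433 CPM in control and 633 to 1145 CPM in miR-106b libraries. Of 12 blood and leukocyte markers, 10 were tested and 9 rose, with sums of 118 to 176 CPM and 288 to 470 CPM. Of 10 juxtaglomerular and mural markers, 8 were tested, 5 rose and 1 fell, with a median log2 fold change of 1.01 and with sums of 1228 to 1392 CPM in control and 1185 to 1695 CPM in miR-106b libraries. Of 10 markers of kidney epithelium only Lrp2 and Cdh16 had enough counts to test, and Lrp2 fell by 1.07 on the log2 scale. The cardiac sum was 42477, 73510, 49393 and 71352 CPM in miR-106b replicates 1 to 4, where the mitosis and cytokinesis genes summed to 239, 647, 923 and 265 CPM. Replicate 1 was low in both sums, replicate 4 was high in cardiac markers and low in mitotic genes, and replicate 3 was lower in cardiac markers than replicates 2 and 4 and highest in mitotic genes. In the control group, replicate 4 had the highest cardiac sum, 27396 CPM, and the lowest mitotic sum, 1318 CPM. Without replicates 2 and 4, which had the highest cardiac sums, 15 of the 39 genes passed the threshold, beside 1463 of all 14897 tested genes lower. The median log2 fold change of the 39 genes was then -1.65. The part of the marker transcripts in the fall was not tested.

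**Figure D2:**
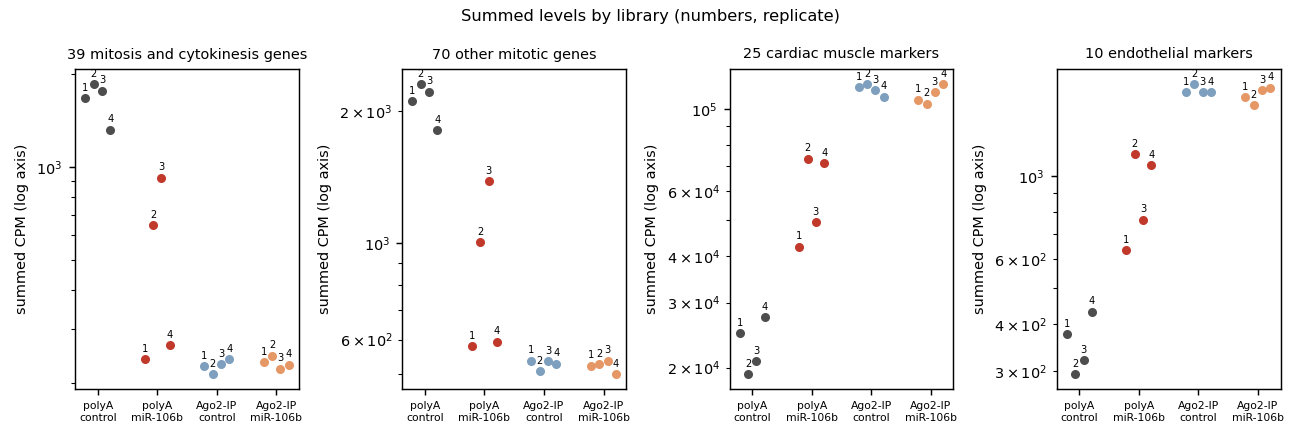
Summed CPM (log axis) in each library of the 39 genes, of 70 other mitotic genes, of 25 cardiac muscle markers and of 10 endothelial markers. Each point is a library and its number is the replicate. Among the polyA miR-106b libraries the 39 genes range from 239 to 923 CPM and the cardiac markers from 42477 to 73510 CPM.

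Foxm1 and Mybl2 encode the transcription factors Foxm1 and B-Myb, which drive transcription of mitotic genes. Foxm1 (ENSMUSG00000001517, chr6:128362967-128375893 of GRCm38) was at 133, 136, 129 and 98.4 CPM in polyA control and at 23.7, 52.4, 65.1 and 22.9 CPM in polyA miR-106b libraries. The groups did not overlap, and miR-106b replicates 1 and 4 were the lowest. The log2 fold change was -1.72 (adjusted p = 0.0021 by edgeR, SE 0.31). Mybl2 fell from 45.1 ± 7.92 to 15.5 ± 9.71 CPM, a log2 fold change of -1.65. A stretch of 23.8% of the 50-base windows of the Mybl2 transcript is also found in another annotated gene, mostly Gm3320, so its count is uncertain to that extent.

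The cyclins and kinases that carry cells into mitosis fell by a median log2 fold change of -1.75, and all 8 passed the test. Cdk1, the catalytic partner of the mitotic cyclins (chr10:69336635-69352938), was at 38.8, 45.6, 48.7 and 35.6 CPM in control and at 8.25, 16.6, 19.0 and 4.23 CPM in miR-106b libraries. Every control library was above every miR-106b library, and the log2 fold change was -1.91 (adjusted p = 0.000988 by edgeR, SE 0.31). Cyclin A2 (Ccna2) fell by 1.99 on the log2 scale, cyclin B1 (Ccnb1) by 1.77 and cyclin B2 (Ccnb2) by 1.61. Polo-like kinase 1 (Plk1), which acts on centrosomes, kinetochores and the midzone, was at 62.6, 69.2, 65.2 and 49.1 CPM in control and at 7.6, 30.6, 34.8 and 8.46 CPM after miR-106b. Its miR-106b libraries fell into a low pair, replicates 1 and 4, and a higher pair, and its log2 fold change was -1.71 (adjusted p = 0.0135 by edgeR, SE 0.44). Aurora A (Aurka), the kinase of spindle poles, fell by 1.73 and Melk, a kinase expressed late in the cycle, by 1.85 on the log2 scale. Aurora B (Aurkb), the kinase of the chromosomal passenger complex, had the highest adjusted p of the 39 genes, 0.0342 in edgeR's test, with a log2 fold change of -1.54. It was over the threshold with DESeq2's Wald test (adjusted p = 0.053), without a filter on low counts (adjusted p = 0.158) and in 4 of the fits that left out 1 library. Of the 50-base windows of Ccnb1, 42.1% also occur in another annotated gene, mostly its pseudogene Ccnb1-ps, 15.9% of those of Ccna2 occur in the antisense neighbour Exosc9, and 10.9% of those of Plk1 occur elsewhere, mostly in Plk-ps1. The libraries did not keep strand, so reads of such pairs cannot be told apart.

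The 9 checkpoint and kinetochore genes held both ends of the range and fell by a median log2 fold change of -1.58. Bub1, a checkpoint kinase of kinetochores (chr2:127801122-127831865), was at 7.39, 8.77, 7.18 and 4.14 CPM in control and at 1.3, 1.3, 2.37 and 0 CPM after miR-106b. The last of these had 0 counts, which at its depth allows up to 1.06 CPM, and the counts of the other 3 libraries were 6, 5 and 9. Its log2 fold change of -2.51 (adjusted p = 0.00103 by edgeR, SE 0.44) thus rests on few reads. Bub1b, which encodes the checkpoint protein BubR1, fell by 1.58 and the kinase gene Ttk (Mps1) by 1.61 on the log2 scale. Ttk was the gene whose groups overlapped, at 7.95, 6.64, 8.65 and 3.07 CPM in control and at 0.652, 3.11, 3.95 and 1.76 CPM after miR-106b. Control replicate 4 was lower than miR-106b replicates 2 and 3. Ndc80 and Nuf2 encode subunits of the complex that attaches kinetochores to microtubules, and fell by 2.15 and 1.41 on the log2 scale. The kinetochore motor gene Cenpe fell by 1.5, Mad2l1, whose product Mad2 inhibits Cdc20, by 1.48, and Spag5 (astrin), which stabilises attached kinetochores, by 1.96. Cenpf, a large kinetochore and centromere protein, had the smallest log2 fold change, -1.33 (SE 0.26), at 35.6 ± 5.8 CPM in control and 15.5 ± 6.72 CPM after miR-106b.

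The anaphase genes act in the step that destroys cyclin B and securin and splits sister chromatids. Cdc20, the activator of the anaphase-promoting complex (APC/C), fell from 94.9 ± 12.4 to 33.1 ± 22.5 CPM, a log2 fold change of -1.64. Ube2c, the ubiquitin-conjugating enzyme that works with the APC/C, fell by 1.91 and Espl1 (separase), the protease that cuts cohesin, by 1.74 on the log2 scale. Exons of Ube2c overlap the antisense gene Tnnc2 over 22.8% of their bases, and 11.6% of the 50-base windows of Cdc20 occur elsewhere, mostly in Gm7856.

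Top2a, the topoisomerase that untangles sister chromatids (chr11:98992943-99024189), was at 101, 128, 127 and 81.0 CPM in control and at 11.9, 35.0, 65.6 and 13.4 CPM after miR-106b. Its groups did not overlap, and its log2 fold change was -1.91 (adjusted p = 0.016 by edgeR, SE 0.50). Birc5 (survivin), a subunit of the chromosomal passenger complex, fell from 40.2 ± 5.49 to 12.4 ± 8.17 CPM, a log2 fold change of -1.82.

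The 6 genes of spindle motors and microtubule proteins fell by a median log2 fold change of -1.78. Kif4, a chromosome-bound kinesin, changed most, from 16.8 ± 1.43 to 4.02 ± 2.3 CPM with a log2 fold change of -2.17 (adjusted p = 0.000683 by edgeR, SE 0.28). Its exons overlap the antisense gene Pdzd11 over 15.1% of their bases, and 16.2% of its 50-base windows occur in another annotated gene. Nusap1, which bundles spindle microtubules, fell by 2.05 with the largest SE of the 39 genes, 0.53, and had 1, 13, 30 and 4 counts in the miR-106b libraries. Tpx2, which activates Aurora A on the spindle, fell by 1.88, the bipolar kinesin gene Kif11 by 1.68 and the hyaluronan receptor and spindle protein gene Hmmr by 1.63 on the log2 scale. Kif2c, a kinesin that takes microtubules apart at their ends, fell by 1.41.

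The 9 cytokinesis genes fell by a median log2 fold change of -1.89, the largest median of the 7 roles, although no test compared the roles. Cep55, which brings the abscission machinery to the midbody, was at 7.11, 10.1, 10.4 and 8.59 CPM in control and at 0.869, 2.34, 3.16 and 1.76 CPM after miR-106b, a log2 fold change of -2.29. Ect2, the exchange factor that activates RhoA at the cell equator (chr3:27097222-27153878), was at 24.4, 25.8, 23.3 and 21.2 CPM in control and at 3.04, 8.3, 10.5 and 2.11 CPM after miR-106b. Its control libraries were tightly grouped and far above the others, and its log2 fold change was -2.08 (adjusted p = 0.000683 by edgeR, SE 0.32). The partners of the centralspindlin complex, Kif23 and Racgap1, fell by 1.89 and 1.74 on the log2 scale. Prc1, which crosslinks the midzone microtubules, fell by 1.74, and the midzone kinesin genes Kif20a and Kif20b by 1.88 and 1.83. The scaffold gene of the contractile ring, Anln (anillin), fell by 2.0. Iqgap3, a scaffold protein of dividing cells, fell by 2.01, from 104 ± 14.7 to 28.0 ± 18.1 CPM. The antisense gene Cdc23 overlaps 29.3% of the exon bases of Kif20a, and Cdc23 itself had a log2 fold change of -0.28 that did not pass the test.

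**Figure D3:**
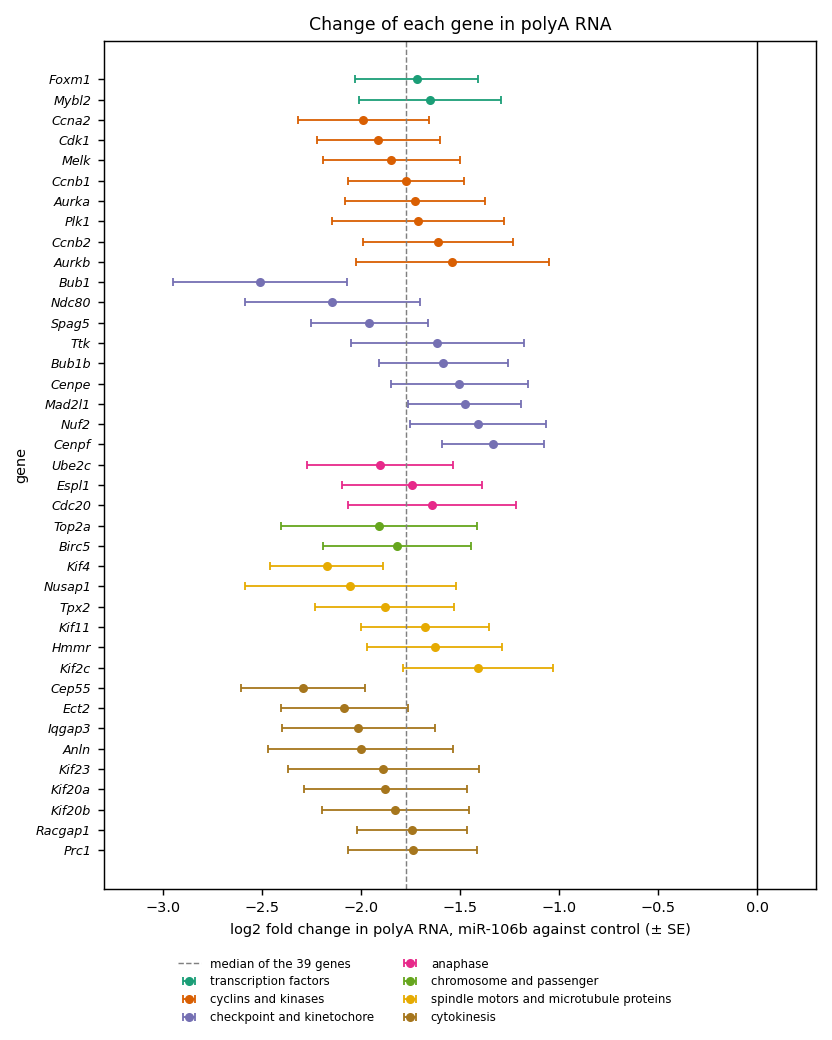
Log2 fold change in polyA RNA, miR-106b against control, of each of the 39 genes, coloured by role, with bars of ± 1 SE and a dashed line at the median. All points lie left of 0, between -2.51 for Bub1 and -1.33 for Cenpf, and most error bars reach the median of -1.77.

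The wider mitotic machinery was read from lists of genes with related roles. Of 70 other mitotic genes, 69 were tested, and 61 of these fell, 1 rose and the median log2 fold change was -1.55. The gene that rose was Pttg1, which encodes securin, the inhibitor of separase, at 0.91 (adjusted p = 0.00313 in edgeR's test), where Espl1 (separase) fell. Subunits of the APC/C and checkpoint genes whose transcripts vary less over the cycle had a median of -0.28, with 7 of 17 lower, where 21.5% of all tested genes were lower, and none higher. The 7 were Anapc1, Anapc2, Anapc5, Cdc27, Fzr1, Bub3 and Mad1l1, and Cdc27, an APC/C subunit, had the largest of these changes at -1.02. Of 22 genes of the contractile ring and of abscission, most of them used also by cells that do not divide, 8 fell and 1 rose, with a median of -0.20, against the same 21.5% lower and 19.0% higher among all tested genes. RhoA (Rhoa, -0.54) and non-muscle myosin IIA (Myh9, -0.77) were among the 8. Of 11 genes of MuvB and DREAM, 6 fell and 1 rose. The MuvB subunit genes Lin9 and Lin54 fell by 1.14 and 0.78 on the log2 scale, and the genes of the DREAM proteins p107 (Rbl1) and Dp1 (Tfdp1) by 1.01 and 1.03.

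In the control transfection, Ago2-IP RNA held less of every one of the 39 genes than polyA RNA. All 39 were lower, against 37.9% of all tested genes, by a median log2 fold change of -2.92 where the median of all tested genes was -0.06. The adjusted p-values lay between 3.42e-16 and 4.88e-06 in edgeR's test. Ect2 had the largest difference, -4.08, at 0, 2.16, 1.47 and 1.88 CPM in Ago2-IP control libraries. Cenpf had the smallest, -1.37, at 13.7, 12.6, 14.1 and 15.8 CPM. Cytokinesis genes had a median of -3.32 and checkpoint and kinetochore genes of -2.64. The 39 genes summed to between 214 and 246 CPM over the 8 Ago2-IP libraries, a range narrower than that of either polyA group. Between the same libraries 35.4% of all tested genes were higher in Ago2-IP RNA. Of the tested markers, 23 of 24 of cardiac muscle (median log2 fold change 2.26), 10 of 10 of endothelium (2.21) and 10 of 10 of blood and leukocytes (2.22) were higher. Of the juxtaglomerular and mural markers 6 of 8 were higher and 2 lower. Both tested markers of kidney epithelium, Lrp2 and Cdh16, were lower, with a median of -4.44, and the 10 markers of that list summed to 124 to 243 CPM in polyA control and 2.8 to 11.3 CPM in Ago2-IP control libraries. The part of these transcripts in the low level of mitotic genes was not tested.

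In Ago2-IP RNA, the comparison of miR-106b with control asks whether Ago2 held more or less of each mRNA. None of the 39 genes passed the threshold in edgeR's test, as 0% of all tested genes did, and none passed with DESeq2's Wald test or edgeR's likelihood ratio test. The median log2 fold change was 0.00, with 19 values below 0 and 20 above. An unadjusted p under 0.05 was reached by 4 of the 39 genes and by 5.54% of all tested genes. These were Hmmr, Foxm1, Cdk1 and Iqgap3, with adjusted p-values of 0.639, 0.843, 0.876 and 0.88 in edgeR's test.

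The groups of Ago2-IP libraries did not overlap for 2 genes that were higher with miR-106b, as for 1.26% of all tested genes, and for 2 that were lower, as for 2.10%. Hmmr was at 1.87, 1.54, 1.77 and 2.83 CPM in control and at 4.53, 5.58, 3.49 and 5.11 CPM after miR-106b. Foxm1 was at 17.4, 13.2, 17.9 and 16.5 CPM in control and at 18.9, 18.6, 21.6 and 24.0 CPM after miR-106b. Melk and Ccna2 were the genes with lower values, at 2.77 ± 0.815 and 1.40 ± 0.364 CPM for Melk and at 7.40 ± 0.612 and 5.40 ± 1.18 CPM for Ccna2 in control and with miR-106b. For each of the 4 genes the exact permutation test over libraries, two-sided, gave p = 0.0286, the smallest that 4 against 4 libraries allow, which does not hold after adjustment over all genes. Both Foxm1, with higher values, and Ccna2, with lower ones, hold a 3′UTR site. The other 4 genes with a site overlapped between transfections, with Cenpe at 5.06 ± 2.72 and 4.03 ± 0.482 CPM, Cep55 at 1.79 ± 1.4 and 1.73 ± 0.454 CPM, Kif23 at 4.04 ± 0.493 and 4.82 ± 2.55 CPM and Ect2 at 1.38 ± 0.961 and 2.6 ± 0.923 CPM in control and with miR-106b. Levels this low rest on few reads, since the 39 genes together had between 567 and 1016 counts per Ago2-IP library.

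**Figure D4:**
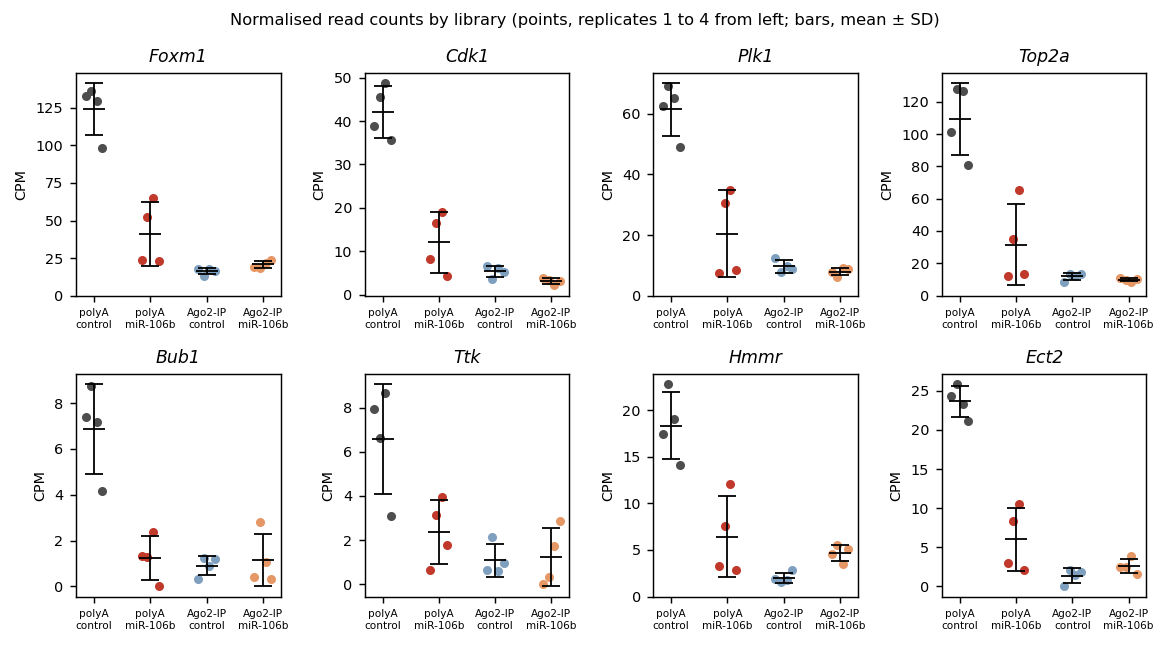
CPM of 8 of the genes by library, with replicates 1 to 4 from left to right in each group and bars for the mean ± SD. In polyA RNA the groups are apart except for Ttk, and in Ago2-IP RNA the Hmmr libraries with miR-106b, between 3.49 and 5.58 CPM, lie above those of control.

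The ratio of Ago2-IP to polyA RNA was compared between transfections in a fit of all 16 libraries. It was higher with miR-106b for 19 of the 39 genes, against 7.61% of all tested genes, and lower for none, against 19.7%. The median log2 change of the ratio was 1.68, beside -0.07 over all tested genes. Of the tested markers, 23 of 24 of cardiac muscle (median -1.39), 10 of 10 of endothelium (-1.41), 8 of 10 of blood and leukocytes (-1.40) and 6 of 8 juxtaglomerular and mural markers (-1.18) were lower in the ratio, and neither tested marker of kidney epithelium passed. Their part in the change was not tested. These ratios share their libraries with the comparisons above, in which the polyA level fell and the Ago2-IP level had no call, so they are no separate evidence. The largest changes were those of Ect2 (log2 change 2.82, SE 0.71, adjusted p = 0.00541 in edgeR's test), Bub1 (2.75) and Hmmr (2.69). The smallest was that of Melk (0.70), which did not pass. By role, 7 of 9 cytokinesis genes passed, 4 of 9 checkpoint and kinetochore genes, 3 of 8 cyclins and kinases, 2 of 3 anaphase genes, 2 of 6 spindle genes, Foxm1 of the transcription factors and neither Top2a nor Birc5. Among the 6 genes with either 3′UTR site, 4 passed and the median change was 1.98, and among the 33 without one 15 passed and the median was 1.64. Without polyA miR-106b replicate 3, the library with the highest mitotic level of its group, 33 genes passed, beside 1536 of all tested genes higher. Without polyA miR-106b replicates 2 and 4, 11 did, beside 715 of all, and the median log2 change of the 39 genes was 1.52.

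Within the miR-106b transfection, Ago2-IP RNA was lower than polyA RNA for 16 of the 39 genes, against 19.8% of all tested genes, and the median log2 fold change was -1.21. Melk had the largest difference, -2.05 (adjusted p = 0.00613 in edgeR's test), and Bub1 the smallest, -0.13, which did not pass. In this comparison 18.6% of all tested genes were higher in Ago2-IP RNA. Among the tested markers, 23 of 24 of cardiac muscle (median log2 fold change 0.89), 9 of 10 of endothelium, 9 of 10 of blood and leukocytes and 4 of 8 juxtaglomerular and mural markers were higher. Of the latter 2 were lower, as was 1 of the 2 tested markers of kidney epithelium. Their part in the difference was not tested. Each of the 39 genes had a higher mean in polyA miR-106b than in Ago2-IP miR-106b libraries. Set against all 8 Ago2-IP libraries, those of the control transfection included, polyA miR-106b replicate 1 was at or below the highest Ago2-IP library for 35 genes, and replicate 4 was for 32. The same was not counted over all tested genes. The count of genes called depended on single libraries. It was 27 without polyA miR-106b replicate 1, beside 2617 of all tested genes lower. It was 6 without polyA miR-106b replicate 2, beside 3015 of all, and 8 without replicate 3, beside 2619. The 6 were a smaller share of the 39 genes than the 3015 were of all 14897. The count was between 7 and 9 when any of the 4 Ago2-IP miR-106b libraries was left out. In those fits between 2325 and 2413 of all tested genes were lower.

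Because the genes moved together, their promoters were read for the CHR element, here TTTGAA or TTCGAA on either strand, and for CCAAT on either strand, from 250 bases before to 50 after the transcription start (RefSeq, GRCm38.p6). A promoter was matched for 34 of the 39 genes, and the others were Aurkb, Ccna2, Foxm1, Kif20a and Tpx2. A CHR word stood in 26 of the 34 (76.5%), against 21.7% of 27025 genes with a promoter. From 100 bases before the start to 50 after, it stood in 25 (73.5%) against 9.87%. CCAAT stood in 22 (64.7%) against 41.1%, and at 2 or more places in 14 (41.2%) against 13.3%. Both words stood in the same promoter of 20 genes (58.8%) against 8.61%. In polyA RNA the log2 fold changes of the 26 genes with a CHR word and of the 8 without one had medians of -1.79 and -1.71 and overlapping ranges of -2.51 to -1.33 and -2.05 to -1.41.

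The CHR words of 9 genes from the main roles are shown because they stand close to the start, within 33 bases of it. Each line gives 30 bases of the gene's strand, 5′ to 3′, with the CHR word in capitals (TTCAAA is TTTGAA read on the other strand). The positions on GRCm38.p6 are chr10:69352910-69352939 on the minus strand for Cdk1, chr9:70421533-70421562 (minus) for Ccnb2, chr7:122159453-122159482 (plus) for Plk1, chr2:127831828-127831857 (minus) for Bub1, chr1:189688067-189688096 (minus) for Cenpf, chr4:118437344-118437373 (minus) for Cdc20, chr11:40733412-40733441 (minus) for Hmmr, chr9:61946780-61946809 (minus) for Kif23 and chr19:38054996-38055025 (plus) for Cep55.
Cdk1: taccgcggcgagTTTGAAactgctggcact
Ccnb2: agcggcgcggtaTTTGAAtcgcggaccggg
Plk1: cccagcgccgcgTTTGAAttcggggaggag
Bub1: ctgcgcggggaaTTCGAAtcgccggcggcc
Cenpf: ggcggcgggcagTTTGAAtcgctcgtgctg
Cdc20: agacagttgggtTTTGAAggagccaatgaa
Hmmr: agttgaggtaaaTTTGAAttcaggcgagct
Kif23: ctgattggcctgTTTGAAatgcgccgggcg
Cep55: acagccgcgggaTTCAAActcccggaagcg
The Cdc20 and Kif23 windows also hold CCAAT, on the strand shown for Cdc20 and on the other strand for Kif23. In Ccnb2, CCAAT stood 87, 54 and 21 bases before the start. A word describes these windows and says nothing of which protein was bound, and no measurement of binding to DNA was made.

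**Figure D5:**
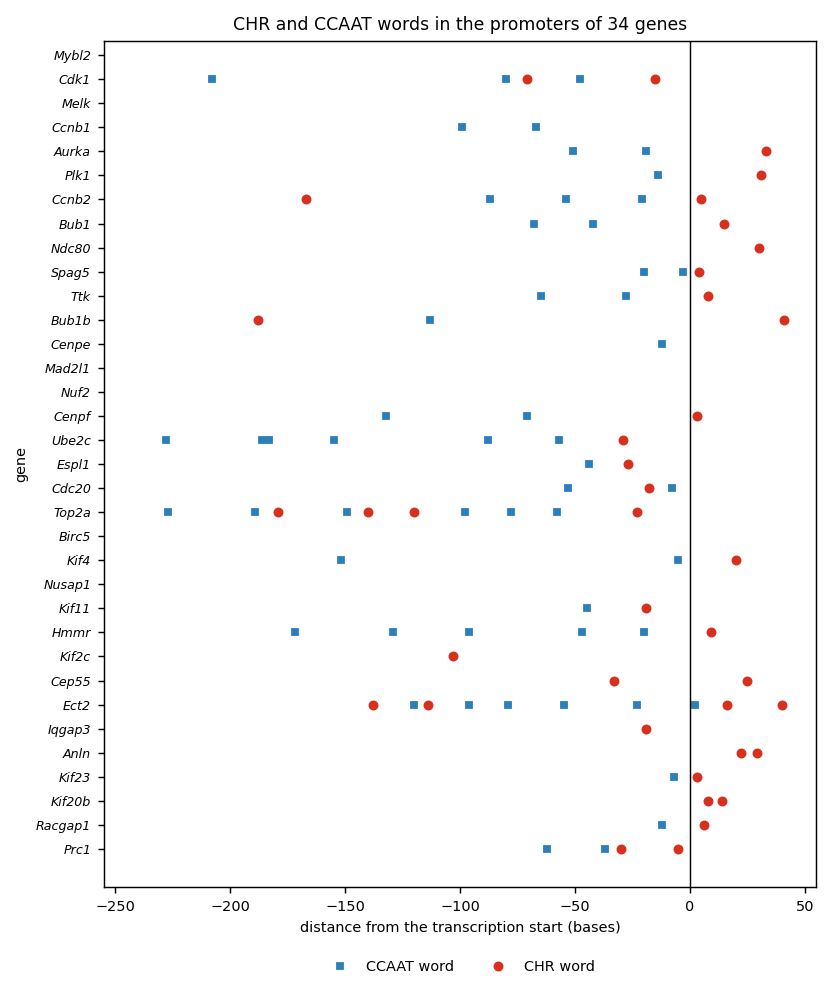
Distance in bases from the transcription start (x axis, 0 at the start) of CHR words (red circles) and CCAAT words (blue squares) in the promoters of 34 of the genes (rows). Most CHR words lie close to the start, with 25 genes holding one from 100 bases before it to 50 after, and nearly all CCAAT words lie upstream of it.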

How the data were processed

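The deposited table holds raw read counts per gene for 16 libraries, with no normalization. Per the labels, libraries were not strand-specific and single-end. The authors' methods state reads of 50 bases, alignment to GRCm38 with Tophat2 and counting with HTSeq version 0.9.1. The submitters' processing notes name TopHat2 2.0.10, and the methods name a later version of it. Rows with no gene name (197, 0.618% of counts) were kept in the library sizes of the CPM values and were not barred from the tests. Libraries were placed in groups by their titles, which match the column names.

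Genes that reached 1 CPM in 3 or more of the 4 replicates of some group were tested, with CPM for this filter scaled to library size only. The filter follows the wording of the study's methods, but left another number of genes than the study gives. The main test was the two-sided quasi-likelihood F test of edgeR 4.0.16 with robust dispersion and TMM scaling within each fit (R 4.3.3, limma 3.58.1), adjusted by Benjamini-Hochberg over all 14897 genes with a threshold of 0.05. DESeq2 1.42.0 was an alternative. Each comparison of 2 groups used its 8 libraries, and the change of the ratio was the interaction term over all 16. The prior count of the fitted log2 fold changes was 0.125, and the SE is the size of the log2 fold change divided by the square root of F. Single genes were compared over libraries by exact permutation tests (70 relabellings). Sequences and figures were handled in Python 3.11.15 with pandas 2.3.3, numpy 2.4.6 and matplotlib 3.10.9.

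On counts simulated at these depths, 199 of 200 genes changed by 3-fold were recovered for polyA RNA among 14896 genes with 12 false calls. For Ago2-IP RNA 196 of 200 were recovered among 14889 genes with 9, and for the ratio 152 of 200 among 14897 genes with 6. The simulation gave every gene the same fixed dispersion and changed only genes above a minimum mean CPM. It did not cover genes as variable as Top2a in polyA miR-106b libraries (31.5 ± 25.1 CPM). Nor did it cover genes as low as Bub1 in Ago2-IP control libraries (0.90 ± 0.42 CPM), so these counts are not the power for the 39 genes. A count of 0 allows up to 3 counts, which is between 0.277 and 1.24 CPM, and such limits cover counting error only, since reads carry no molecular identifiers. The description of the series gives replicate cell cultures, and p-values measure the spread between these. Replicate numbers did not pair libraries, with correlations of deviations from -0.38 to 0.22, and no 2 libraries of the same group agreed within sampling noise. The 39 genes, the roles, the pathway lists and the marker lists were chosen with earlier results of these data known, and all 39 are named by rule. Alternatives were other scalings, filters, tests and prior counts, a replicate block, and leaving out each library.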

Additional observations from a re-analysis of the deposited data

Results flagged for a closer look

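For 19 genes the change with miR-106b differed between Ago2-IP and polyA RNA in the interaction test of edgeR's fit of all 16 libraries, at an adjusted p under 0.05. The differences, as the log2 change in Ago2-IP RNA minus that in polyA RNA, were those of Foxm1 (1.95), Ccna2 (1.40), Ccnb2 (1.83), Aurka (1.94), Bub1 (2.75), Bub1b (1.78), Cep55 (2.15), Cenpf (1.10), Iqgap3 (2.27), Prc1 (1.49), Tpx2 (1.78), Kif20a (2.23), Kif20b (2.07), Ube2c (1.76), Spag5 (1.69), Espl1 (1.55), Hmmr (2.69), Racgap1 (1.64) and Ect2 (2.82). All 19 were above 0, the polyA level of each fell, and none passed the test in Ago2-IP RNA alone. The cardiac muscle markers differed the other way, with 23 of 24 tested lower in the ratio and a median of -1.39, and the part of this in the differences was not tested.

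A library stood apart from the other 3 of its group in 2 of 160 sets of 4 libraries (each of the 39 genes and their sum, in each of the 4 groups), by Dixon's test at its 95% level, where chance gives about 1 in 20. Ccna2 was at 8.31 CPM in Ago2-IP control replicate 2, and the other 3 libraries were between 7.06 and 7.15 CPM. Birc5 was at 9.06 CPM in Ago2-IP miR-106b replicate 3, and the others were between 4.48 and 4.96 CPM.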

How the results depend on the processing

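The 39 genes were lower in polyA RNA in every alternative. The number past the threshold ran from 32 to 39 and the median log2 fold change from -2.16 to -1.44 when 1 library was left out. It was 32 without a filter on low counts, 38 with DESeq2's Wald test, and 27 of 27 with at least 10 counts in every library. An alternative chosen after seeing the data left out polyA miR-106b replicates 2 and 4. In polyA RNA 15 then passed, beside 1463 of all 14897 tested genes lower. In the ratio 11 passed, beside 715 of all higher, and the median of the 39 genes was 1.52. In the comparison of Ago2-IP with polyA RNA under miR-106b, 10 passed, beside 3268 of all lower, and their median was -1.31 over the 39 genes. For the ratio, 32 genes passed with edgeR's likelihood ratio test, beside 1810 of all tested genes higher. Leaving out 1 library gave between 13 and 33. The lowest, without Ago2-IP miR-106b replicate 2, stood beside 874 of all tested genes higher. The highest, without polyA miR-106b replicate 3, stood beside 1536. For Ago2-IP against polyA RNA in control, 21 were lower with at least 10 counts in every library, which is all the 21 that this filter left. Under miR-106b, where the main fit had 16, 12 were lower with DESeq2's size factors (2901 of all tested genes) and 18 with library size only (4008). There were 19 with DESeq2's Wald test (2739) and 22 with edgeR's likelihood ratio test (3243). Between 6 and 27 were lower when 1 library was left out. The fit with 6 had 3015 of all 14897 tested genes lower, and the fit with 27 had 2617. In that comparison Bub1, at -0.13, changed sign to 0.32 without polyA miR-106b replicate 3, to 0.11 without Ago2-IP miR-106b replicate 1 and to 0.19 without Ago2-IP miR-106b replicate 4, and was lowest, -1.08, without Ago2-IP miR-106b replicate 2. Cep55, Cenpf and Hmmr changed sign to 0.082, 0.018 and 0.037 without polyA miR-106b replicate 3, and were lowest, at -0.50, -0.48 and -0.70, without polyA miR-106b replicate 1. The cause of these shifts was not tested, beyond the smaller number of libraries or genes. In Ago2-IP RNA no alternative gave a call among the 39 genes, a term for the level of Gm10800, chosen after seeing the data, included.

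With the replicate block, 39 genes passed in polyA RNA (median -1.90), 0 in Ago2-IP RNA, 21 in the ratio, 39 in Ago2-IP against polyA RNA in control and 17 under miR-106b, and the numbers do not pair the libraries. The balance of all genes moved too. In polyA RNA, 3198 were lower and 2836 higher, against 2642 and 3163 with DESeq2's size factors, 3351 and 2771 with scaling by library size only, and 2408 and 3829 with all 16 libraries in 1 fit, which changes the scaling and the estimate of spread together. With scaling by library size only, 2304 ratios were lower and 2002 higher, against 2937 and 1134, and the median of all genes for Ago2-IP against polyA RNA moved from -0.06 to -0.35 in control and from -0.04 to -0.19 under miR-106b. The medians of the 39 genes there were -3.20 and -1.37, so relative to all genes they stayed below. In Ago2-IP RNA, where the 39 genes had 567 to 1016 counts per library, the SE of their log2 fold changes lay between 0.16 and 0.73 with a median of 0.33.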
